A study of Ovis aries and Bos taurus with 15 samples.

Results

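Ovine PAECs treated with GW9662 were compared with ovine PAECs given its DMSO vehicle. PAEC usually stands for pulmonary artery endothelial cell, and the series title speaks of pulmonary endothelial cells. The comparison used 10 of the 15 arrays of the study, 5 per group. It took every probe set that is not an array control, 24016 of 24128. The treated group received GW9662 at 5 µM for 24 h, and the control group received the vehicle over the same period. All cells were grown in DMEM with 10% FBS, so both groups were exposed to the lipids of serum. The bovine cells of the remaining 5 arrays were used only in 1 alternative fit. The labels name no cell donor, passage or culture for any array. The p-values therefore measure the spread between these samples, which may be technical.

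GW9662 binds covalently to the ligand pocket of PPARγ and blocks its activation. PPARγ is a nuclear receptor that pairs with RXR and switches on genes of fatty acid uptake, storage and transport. In endothelial cells it is also known for restraining inflammatory genes and for supporting nitric oxide signalling, and loss of its activity has been linked to pulmonary hypertension. The study's title places the experiment in that setting.

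Expression was read as log2 values made with RMA, in which a step of 1 is a doubling of signal. The arrays carry bovine probes, so a low value for sheep RNA may reflect weak expression or a poor probe match. Values ran from 0.92 to 14.07, and 45.9% of the probe sets had a mean under 3. The 7391 probe sets with a mean of 6 or more over the 10 arrays, called bright here, were described first. They stood for 4353 named genes. A log2 difference is GW9662 minus vehicle, given with its standard error (SE) from limma, and adjusted p-values are limma's after Benjamini-Hochberg adjustment over all 24016 probe sets, with a threshold of 0.05. In these bulk samples, fewer cells of a type and less RNA per cell cannot be told apart.

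At that threshold 44 probe sets passed, 0.183% of those tested, 35 higher and 9 lower with GW9662. Among bright probe sets 23 passed as higher, which is 0.311% of them, and 6 as lower, which is 0.0812%. Where only the 7391 bright probe sets were fitted, 152 passed, 134 higher and 18 lower. Some genes given below as short of the threshold passed in that fit. They included CPNE8 (adjusted p = 0.00887), NUSAP1 (0.0139), ARPC3 (0.0166), UROD (0.0264), EPAS1 (0.0348) and SLC2A1 (0.0451). The 44 held 32 probe sets with 1 gene symbol, and these named 30 genes, 19 of them through a bright probe set. The split between higher and lower depended on the scaling of the arrays and on which probe sets were fitted. Of the bright probe sets called, 79.3% were higher as deposited, 95.6% once the median of each array was set to the same value (centring below) and 60.0% after a second quantile normalisation. Where only the brightest probe set of each named gene was fitted, 19 bright ones were called and 63.2% of them were higher. Centring adds the same amount to every log2 difference. The array medians that set this amount lay between 3.18 and 3.27, far below the bright range. Of 21 bright named probe sets, 18 stayed past the threshold with centring (AURKAIP1, SLC16A3 and NME7 did not) and 14 after quantile normalisation (AMIGO2, AURKAIP1, CAV2, the brighter HMMR, SLC16A3, VPS35 and NQO1 did not). With a trended and robust variance 12 of the 21 stayed. SBDS, AURKAIP1, an HMMR probe set, SLC16A3, VPS35, TC2N, TSPAN12, NME7 and NQO1 did not.

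**Figure D1:**
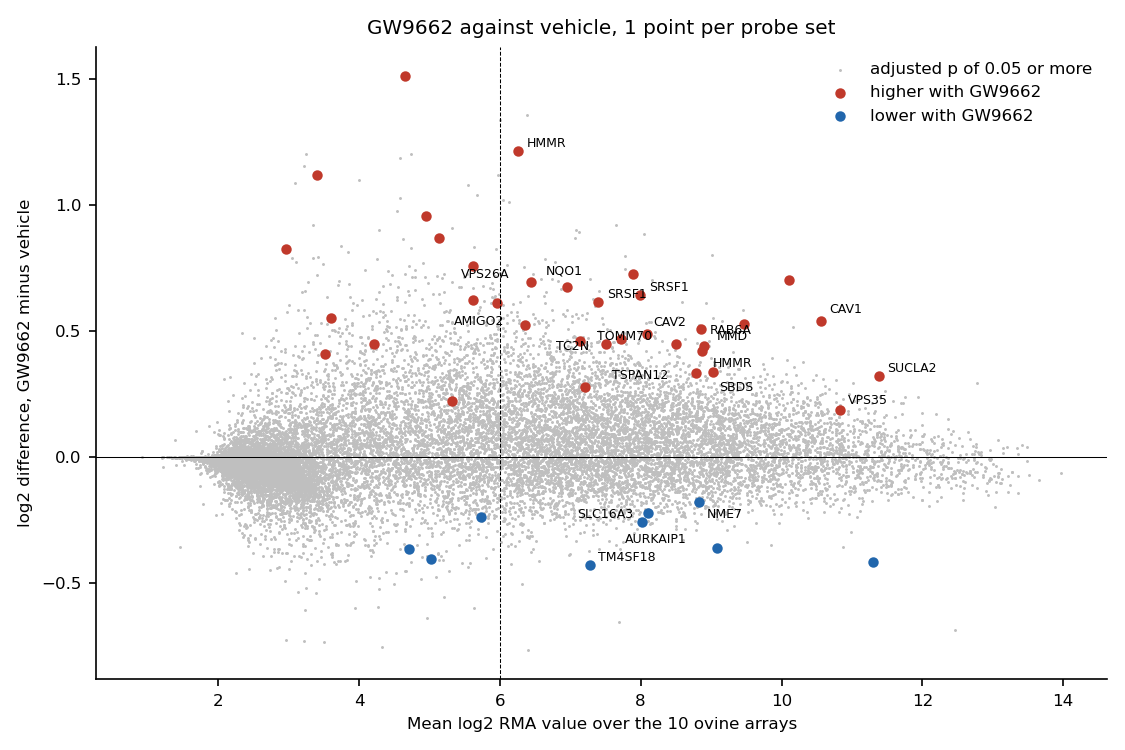
Each point is 1 of 24016 probe sets, with its mean log2 value over the 10 ovine arrays on the x axis and the log2 difference between GW9662 and vehicle on the y axis. The 35 probe sets higher with GW9662 are red and the 9 lower are blue, and the bright named ones, to the right of the dashed line at 6, carry their gene symbol. Most called points lie above 0.

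Non-overlapping groups were also counted, meaning that all 5 GW9662 arrays lay on one side of all 5 vehicle arrays. Taking the brightest probe set of each of the 4353 bright genes, 149 genes were higher without overlap, which is 3.42%, and 83 were lower, which is 1.91%. The median log2 difference over these genes was 0.01, and 53.9% of them had a positive difference. The median was 0.06 with centring, -0.03 after quantile normalisation and -0.06 with the 3′ minus 5′ covariate described below. These values are the background for the gene lists below. Centring moves a list median and this background by the same amount. Counts without overlap in a list are to be read beside the 3.42% and 1.91%, and no list was tested as a set. Among probe sets under 3 the balance was different, with 25.4% lower and 0.0363% higher without overlap. The median difference of those lower dim probe sets was only -0.02.

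**Figure D2:**
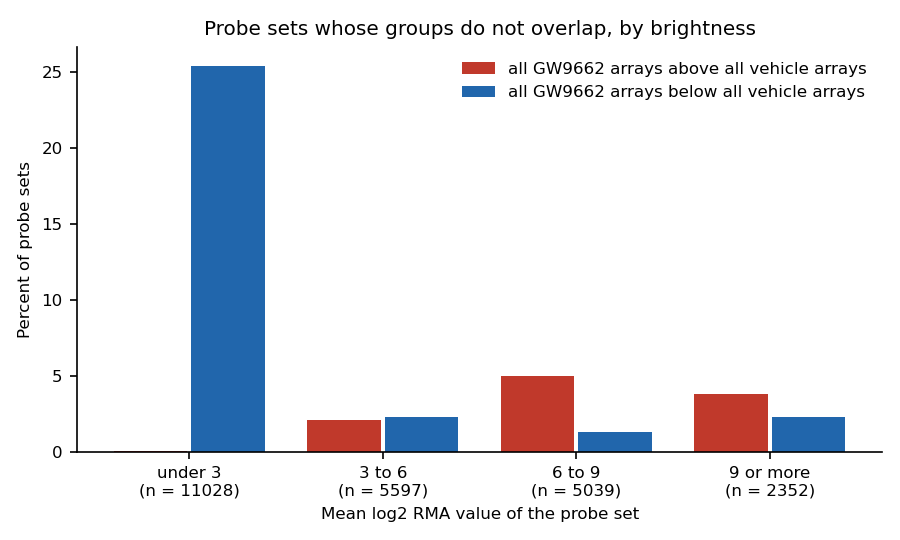
Bars give the percent of probe sets (y axis) whose 5 GW9662 arrays all lay above (red) or all lay below (blue) the 5 vehicle arrays, in 4 classes of mean log2 value (x axis, with the number of probe sets). In the dimmest class 25.4% were lower, while among values from 6 to 9 it was 5.02% higher and 1.29% lower.

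The RNA on the arrays differed between the groups in a measure other than single genes. For 6 control transcripts the arrays carry 3′ and 5′ probe sets, and the mean 3′ minus 5′ difference is larger where RNA is more degraded or copied over a shorter stretch. It was 1.18 ± 0.0846 (SD, n = 5) with vehicle and 0.956 ± 0.0741 (SD, n = 5) with GW9662, and the groups did not overlap (two-sided exact permutation p = 0.00794, 0.0337 after adjustment over the array measures; no smaller p is possible with 5 arrays a group). By transcript, EF1A and cyclophilin were lower with GW9662 without overlap, and GAPDH and eIF4E were lower on average with overlap. For actin and GST the exact permutation p was 0.548 and 0.405. EF1A, actin and GST had negative values in both groups. Treatment and the mean 3′ minus 5′ difference cannot be told apart here. With it as a covariate limma called 0 probe sets, and 1312 had an unadjusted p under 0.05. The log2 differences of the 32 called probe sets with 1 symbol kept their signs in that fit, some at about the same size (0.575 for AMIGO2, 0.345 for SUCLA2, -0.40 for TM4SF18, 0.43 for TOMM70) and some much smaller (0.13 for SBDS, 0.61 for the dimmer HMMR probe set). Vehicle replicate 1 stood apart from the other arrays, with an upper quartile of 6.56 against 6.76 to 6.85. Without it limma called 43 probe sets, 31 of them bright. The count fell to 9, 7 of them bright, without vehicle replicate 5, and 4 of the 21 bright named probe sets then stayed past the threshold: TOMM70, VPS26A, AMIGO2 and TM4SF18. Those 4 also passed in each of the other 9 fits that left out 1 array.

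Genes of endosomal sorting and Golgi traffic were among the rises. Retromer is the coat that lifts receptors out of endosomes and returns them to the Golgi or the cell surface, and VPS26A and VPS35 are core subunits of it. The VPS26A probe set lay at 5.99, 6.03, 6.24, 6.20 and 6.05 on the vehicle arrays and at 6.70, 6.79, 6.80, 6.79 and 6.89 with GW9662. All treated arrays were thus well above the highest vehicle array, and VPS26A rose by 0.69 (SE 0.0546, adjusted p = 0.00683), or 1.62-fold. The other VPS26A probe sets were brighter and moved less, by 0.13 (mean 11.14, adjusted p = 0.240) and 0.30 (mean 8.07, adjusted p = 0.218), both with overlap.

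VPS35 was bright in every array, at 10.74, 10.69, 10.72, 10.79 and 10.75 with vehicle and 10.91, 10.90, 10.97, 10.98 and 10.86 with GW9662. The groups did not overlap but lay close, and VPS35 rose by 0.19 (SE 0.0267, adjusted p = 0.0455). That call was kept in 1 of the 10 fits without 1 array (largest adjusted p 0.129, without vehicle replicate 2) and was lost when only bright probe sets were fitted (adjusted p = 0.0769). RAB6A, a small GTPase of retrograde traffic at the Golgi, read 8.44, 8.53, 8.74, 8.69 and 8.62 with vehicle and 9.01, 9.20, 9.19, 9.11 and 9.04 with GW9662. It rose by 0.50 (SE 0.0634, adjusted p = 0.0296), while its brightest probe set differed by 0.17 (mean 11.23, adjusted p = 0.242). The RAB6A call was kept in 5 of the 10 fits (largest adjusted p 0.119, without vehicle replicate 2).

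A pair of dim probe sets also passed. AP2B1, the β subunit of the AP2 adaptor that loads cargo into clathrin-coated pits, rose by 1.12 on a probe set that read 2.59 to 3.45 with vehicle and 3.89 to 4.09 with GW9662 (adjusted p = 0.0445). Its brightest probe set pointed the other way, at -0.14 from 10.04 ± 0.0474 with vehicle to 9.90 ± 0.0907 with GW9662 (SD, n = 5, adjusted p = 0.217). SEC22A, a SNARE-related protein of the endoplasmic reticulum, rose by 0.41 (SE 0.0562, adjusted p = 0.0439), with a mean of 3.51, while its brighter probe set (mean 4.17) differed by 0.14 with overlap (adjusted p = 0.561). The AP2B1 and SEC22A calls were kept in 1 and 3 of the 10 fits (largest adjusted p 0.129 for both, without vehicle replicate 2).

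The list of clathrin adaptors, endosome and retromer held 42 bright genes. On their brightest probe sets 2 were higher without overlap, VPS35 and VPS4B, the ATPase that takes the ESCRT-III coat apart, and 0 were lower. VPS4B differed by 0.18 (adjusted p = 0.215), and SNX1, a sorting nexin that works with retromer, by 0.27 with overlap (adjusted p = 0.217). The median was 0.03, near that of all bright genes, and it was -0.01 after quantile normalisation and -0.03 with the 3′ minus 5′ covariate. In the secretory list of 41 bright genes 0 were higher and 2 were lower without overlap, with a median of -0.00 (0.04 with centring). They were the p24 cargo protein TMED3 (-0.26, adjusted p = 0.123) and SSR2 of the translocon (-0.11, adjusted p = 0.217).

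Several membrane proteins moved, in both directions. CAV1 and CAV2 are the coat proteins of caveolae, the flask-shaped membrane pits that are abundant in endothelium and hold endothelial nitric oxide synthase. The called CAV1 probe set lay at 10.15, 10.33, 10.44, 10.19 and 10.34 with vehicle and at 10.97, 10.93, 10.77, 10.61 and 10.86 with GW9662. The groups stood clear of each other, and this probe set rose by 0.54 (SE 0.079, adjusted p = 0.0462), or 1.45-fold. The brightest CAV1 probe set did not follow. It read 12.67 to 12.89 with vehicle and 12.66 to 12.78 with GW9662, a difference of -0.06 with full overlap (adjusted p = 0.393).

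For CAV2 the called probe set read 7.92, 7.73, 7.96, 7.92 and 7.72 with vehicle and 8.33, 8.43, 8.34, 8.23 and 8.33 with GW9662. CAV2 rose by 0.49 (SE 0.0567, adjusted p = 0.0184). Its brighter probe sets differed by 0.31 (mean 10.45, adjusted p = 0.234) and 0.39 (mean 9.87, adjusted p = 0.217), in the same direction but with overlap. The CAV1 call was kept in 2 of the 10 fits without 1 array (largest adjusted p 0.129, without vehicle replicate 2) and that of CAV2 in 6 (largest 0.0693, without GW9662 replicate 5).

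AMIGO2, an adhesion protein with leucine-rich repeats and an immunoglobulin domain, read 6.16, 6.03, 6.06, 6.20 and 6.004 with vehicle and 6.58, 6.58, 6.64, 6.68 and 6.58 with GW9662. The treated arrays formed a narrow band above the vehicle arrays, and AMIGO2 rose by 0.52 (SE 0.0413, adjusted p = 0.00683). Its brighter probe set, at a mean of 8.37, differed by 0.42 (adjusted p = 0.112), also without overlap.

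TM4SF18, a member of the L6 family with 4 membrane spans, had the smallest adjusted p of the falls. It read 7.502, 7.49, 7.38, 7.53 and 7.55 with vehicle and 7.02, 7.11, 7.05, 7.00 and 7.12 with GW9662. The groups lay far apart for their spread, and TM4SF18 fell by 0.43 (SE 0.0373, adjusted p = 0.00696). A dimmer TM4SF18 probe set (mean 5.78) differed by 0.04 (adjusted p = 0.871).

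TSPAN12, a tetraspanin that assists Norrin signalling through a Frizzled receptor in vessels, rose by 0.33 (SE 0.0474, adjusted p = 0.0455). Its arrays read 8.51 to 8.74 with vehicle and 8.89 to 8.998 with GW9662. A dimmer TSPAN12 probe set (mean 7.09) differed by 0.56 with overlap (adjusted p = 0.283), and by 0.28 without vehicle replicate 1. MMD, a membrane protein of the progestin and adipoQ receptor family, read 8.62 to 8.80 and 8.98 to 9.17, and rose by 0.44 (SE 0.0456, adjusted p = 0.0119). TC2N, a protein with tandem C2 domains, was spread from 7.07 to 7.45 with vehicle and held between 7.72 and 7.77 with GW9662, and rose by 0.45 (SE 0.063, adjusted p = 0.0439). Of these calls MMD was kept in 9 of the 10 fits without 1 array (adjusted p = 0.055 without vehicle replicate 5), TC2N in 2 and TSPAN12 in 1 (largest adjusted p 0.129 for both, without vehicle replicate 2).

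**Figure D3:**
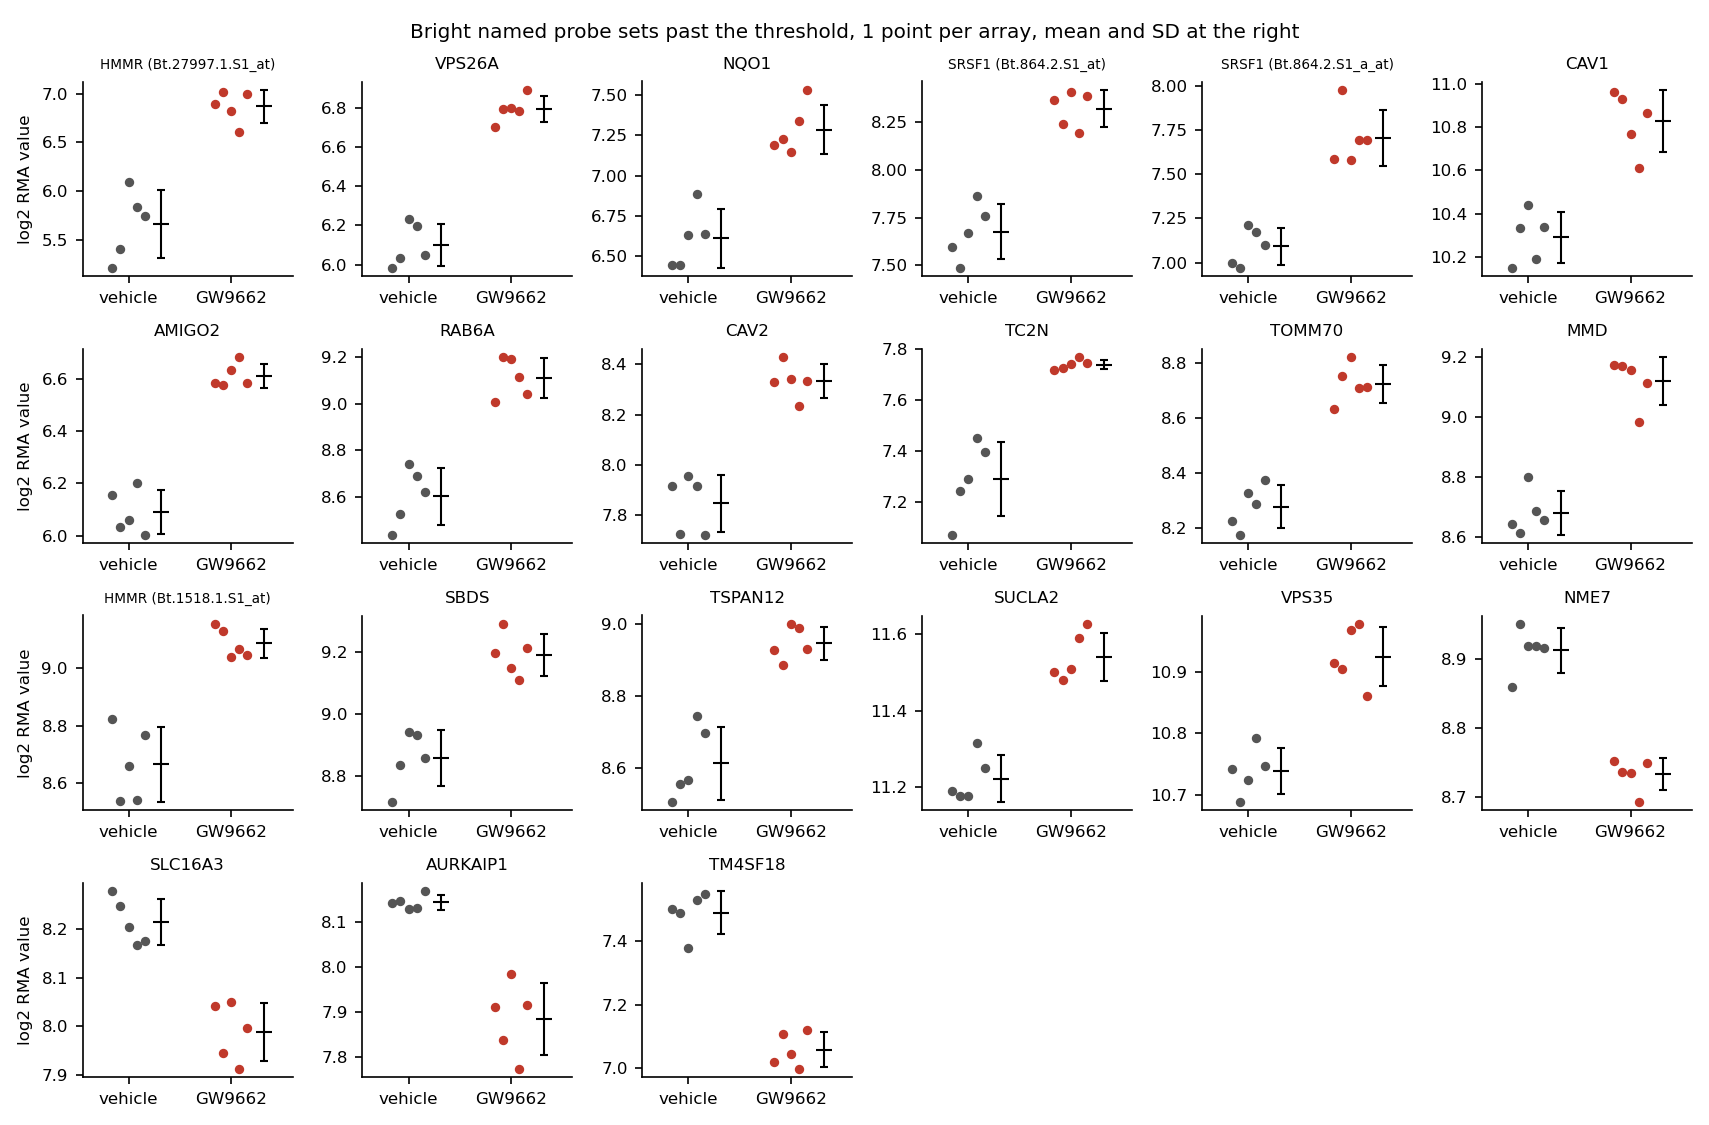
Each panel shows 1 of the 21 bright named probe sets past the threshold, with the log2 value of each vehicle array (grey) and each GW9662 array (red) on the y axis, and the group mean ± SD at the right. The y axes differ between panels and do not start at 0, and in every panel the groups do not overlap. VPS26A separates from 6.24 at most to 6.70 at least, whereas the nearest VPS35 arrays lie at 10.79 and 10.86.

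Among genes of RAS and ERK signalling, SHOC2 passed. SHOC2 is the scaffold of a holoenzyme with MRAS and the catalytic subunit of protein phosphatase PP1, which removes an inhibitory phosphate from RAF kinases. Its probe set was dim to moderate, at 4.43, 4.35, 4.73, 4.37 and 4.50 with vehicle and 5.38, 5.74, 5.25, 5.51 and 5.28 with GW9662. The lowest treated array was above the highest vehicle array by more than the range within the vehicle group, and SHOC2 rose by 0.96 (SE 0.107, adjusted p = 0.0165), or 1.94-fold. The call was kept in 7 of the 10 fits (adjusted p = 0.063 without vehicle replicate 5). A second SHOC2 probe set, with a mean of 4.02, differed by 0.47 with overlap (adjusted p = 0.271).

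The partners did not pass over all probe sets and differed in opposite directions. PPP1CB, a catalytic PP1 subunit, was 11.17 ± 0.0635 with vehicle and 11.38 ± 0.0835 with GW9662 (SD, n = 5), a difference of 0.21 without overlap (adjusted p = 0.123). A dimmer PPP1CB probe set (mean 7.57) differed by 0.50, also without overlap (adjusted p = 0.117). That probe set passed where only bright ones were fitted (limma adjusted p = 0.0266). MRAS differed by -0.205, from 6.16 ± 0.0355 to 5.96 ± 0.113 (SD, n = 5), also without overlap (adjusted p = 0.178). SPRY1, a feedback inhibitor of receptor kinase signalling, differed by 0.26 without overlap (adjusted p = 0.123), and the receptor kinase MET by 0.36 with overlap (adjusted p = 0.217). Over the 16 bright genes of the list 2 were higher and 1 was lower without overlap, and the median was 0.06 (0.10 with centring, 0.01 after quantile normalisation, -0.07 with the 3′ minus 5′ covariate).

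Genes that handle RNA and ribosomes included several calls. SRSF1, an SR protein that selects splice sites, rose on 2 probe sets. The brighter read 7.60, 7.49, 7.67, 7.87 and 7.76 with vehicle and 8.37, 8.24, 8.41, 8.19 and 8.39 with GW9662, a rise of 0.64 (SE 0.0742, adjusted p = 0.0184). The other rose by 0.61 (SE 0.0817, adjusted p = 0.0419), and another probe set of similar brightness (mean 7.79) differed by 0.11 with overlap (adjusted p = 0.261). The 2 calls were kept in 7 and 3 of the 10 fits without 1 array (largest adjusted p 0.0693, without GW9662 replicate 5, and 0.128, without vehicle replicate 2).

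Beyond SRSF1, the spliceosome list of 46 bright genes held no other member whose groups did not overlap. TRA2B, another SR-like splicing regulator, differed by 0.21 (adjusted p = 0.217) and U2AF1, which recognises the 3′ splice site, by 0.23 (adjusted p = 0.201), both with overlap. The list median was 0.01, the same as over all bright genes to 2 decimals, and -0.02 after quantile normalisation.

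SBDS, the factor that matures the large ribosomal subunit by helping to release EIF6 from it, had 3 bright probe sets, and in each the groups did not overlap. The called one read 8.72, 8.84, 8.94, 8.93 and 8.86 with vehicle and 9.20, 9.29, 9.15, 9.11 and 9.21 with GW9662, and SBDS rose by 0.33 (SE 0.0484, adjusted p = 0.0462). The others differed by 0.29 (mean 10.28, adjusted p = 0.217) and 0.46 (mean 8.96, adjusted p = 0.0702). The SBDS call was kept in 2 of the 10 fits (largest adjusted p 0.130, without vehicle replicate 2). EIF6 itself differed by -0.22, from 8.42 ± 0.0638 with vehicle to 8.20 ± 0.133 with GW9662 (SD, n = 5), without overlap but short of the threshold (adjusted p = 0.215). It was 1 of 30 bright translation factors and the only one whose groups did not overlap, and the list median was -0.03 (0.02 with centring).

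REXO1, an RNA exonuclease homologue, had the smallest adjusted p of the 3 named dim falls and passed in all 10 fits without 1 array. It read 5.28, 5.27, 5.18, 5.26 and 5.17 with vehicle and 4.89, 4.79, 4.74, 4.91 and 4.79 with GW9662, and fell by 0.41 (SE 0.0381, adjusted p = 0.00919). In the list of RNA decay and RNA binding, 3 of 18 bright genes were higher without overlap and 0 were lower, with a median of 0.08 (0.12 with centring, 0.03 after quantile normalisation, -0.02 with the 3′ minus 5′ covariate). They were ZFP36L2, which recruits decay enzymes to AU-rich messages (0.30, adjusted p = 0.112), the decapping cofactor DCP1A (0.25, adjusted p = 0.115) and CNOT6, a deadenylase subunit named after its values were seen (0.31). None of these 3 passed the threshold.

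Mitochondrial and metabolic genes moved in both directions. SUCLA2, a subunit of succinyl-CoA ligase in the citric acid cycle, was among the brightest genes called, at 11.19, 11.18, 11.18, 11.32 and 11.25 with vehicle and 11.50, 11.48, 11.51, 11.59 and 11.63 with GW9662. Both groups were tight, and SUCLA2 rose by 0.32 (SE 0.0376, adjusted p = 0.0186), or 1.25-fold. The call was kept in 7 of the 10 fits (largest adjusted p 0.082, without vehicle replicate 2).

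Over the 34 bright genes of the citric acid cycle and mitochondrial carriers, 3 were higher and 2 were lower without overlap, and the median was 0.00 (0.04 with centring, -0.04 after quantile normalisation). The higher ones were SUCLA2, SLC25A20, which carries acylcarnitine into mitochondria (0.29, adjusted p = 0.212), and the cytosolic isocitrate dehydrogenase IDH1 (0.14, adjusted p = 0.178). The lower ones were the malate dehydrogenase MDH2 (-0.14, adjusted p = 0.178) and SUCLG1, the α subunit that pairs with SUCLA2, named after its values were seen (-0.15). SARDH, the mitochondrial sarcosine dehydrogenase, fell on a dim probe set by 0.37 (SE 0.043, adjusted p = 0.0184), from 4.78 to 4.99 with vehicle to 4.48 to 4.59 with GW9662. That call was kept in 6 of the 10 fits (adjusted p = 0.0775 without vehicle replicate 5).

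TOMM70 is the outer membrane receptor that takes carrier proteins from chaperones for import into mitochondria. The called probe set read 8.23, 8.18, 8.33, 8.29 and 8.38 with vehicle and 8.63, 8.75, 8.82, 8.71 and 8.71 with GW9662, a rise of 0.45 (SE 0.045, adjusted p = 0.0117). Its brighter probe set (mean 9.60) differed by -0.08 with overlap (adjusted p = 0.379). The probe sets of TOMM70 thus disagreed in sign.

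AURKAIP1, a protein of the small mitochondrial ribosomal subunit that was first described as a partner of Aurora A kinase, fell by 0.26 (SE 0.0354, adjusted p = 0.0439). It read 8.14, 8.15, 8.13, 8.13 and 8.17 with vehicle and 7.91, 7.84, 7.98, 7.77 and 7.91 with GW9662, so the spread lay almost wholly in the treated group. The call was kept in 2 of the 10 fits (largest adjusted p 0.129, without vehicle replicate 2). In the list of mitochondrial ribosome, import and dynamics, 3 of 63 bright genes were lower without overlap and 0 were higher on their brightest probe sets. Beside AURKAIP1 these were MRPL16 (-0.29, adjusted p = 0.188) and MRPL27 (-0.25, adjusted p = 0.123), both of the large subunit. The median was -0.02, and 0.02 with centring.

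SLC16A3, the monocarboxylate transporter that exports lactate, read 8.28, 8.25, 8.20, 8.17 and 8.18 with vehicle and 8.04, 7.95, 8.05, 7.91 and 7.996 with GW9662, and fell by 0.23 (SE 0.0331, adjusted p = 0.0462). The adjusted p was 0.0864 with centring, 0.115 after quantile normalisation and 0.135 without vehicle replicate 2, and the call was kept in 1 of the 10 fits. SLC2A1, the basal glucose transporter, was 7.88 ± 0.0873 with vehicle and 7.62 ± 0.0378 with GW9662 (SD, n = 5), a difference of -0.26 without overlap (adjusted p = 0.0627). The hexokinase HK1 differed by -0.20 with overlap (adjusted p = 0.169).

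EPAS1, the hypoxia-inducible factor HIF-2α that is abundant in endothelium, lay in the other direction. It was 10.00 ± 0.156 with vehicle and 10.35 ± 0.0332 with GW9662 (SD, n = 5), a difference of 0.36 without overlap (adjusted p = 0.109). Of 29 bright genes of glycolysis and hypoxia, 2 were higher and 2 were lower without overlap. The other higher gene was EGLN3, a prolyl hydroxylase that marks hypoxia-inducible factors for destruction, named after its values were seen (0.34). The list median was -0.02, and 0.03 with centring.

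Among plasma membrane solute carriers, 14 bright genes held 3 lower and 1 higher without overlap, with a median of -0.06 (-0.02 with centring, -0.11 after quantile normalisation). That median was -0.19 with the 3′ minus 5′ covariate. Beside SLC2A1 and SLC16A3, the lower one was the amino acid carrier SLC43A2 (-0.36, adjusted p = 0.120), and the higher one was SLC12A2, the sodium, potassium and chloride cotransporter (0.22, adjusted p = 0.0961).

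NQO1, a quinone reductase and a classical target of the antioxidant factor NRF2, read 6.45, 6.45, 6.64, 6.89 and 6.64 with vehicle and 7.19, 7.22, 7.15, 7.34 and 7.53 with GW9662. Vehicle replicate 4 was the highest vehicle array and still below every treated array, and NQO1 rose by 0.67 (SE 0.1, adjusted p = 0.0495), or 1.6-fold. The call sat at the threshold and was kept in 1 of the 10 fits without 1 array (largest adjusted p 0.141, without GW9662 replicate 4). ME1, the NADP-dependent malic enzyme, differed by 0.41 without overlap, from 8.06 ± 0.276 to 8.47 ± 0.058 (SD, n = 5, adjusted p = 0.217). Those were the only 2 of 16 bright genes of the antioxidant list whose groups did not overlap. PGD of the pentose phosphate pathway (-0.16, adjusted p = 0.217) and the aldose reductase AKR1B1 (-0.17, adjusted p = 0.217) differed the other way, and the list median was 0.01, as over all bright genes.

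In the list of superoxide and peroxide handling 0 of 13 bright genes were free of overlap in either direction. Catalase (CAT) differed by 0.10 (adjusted p = 0.250), the peroxiredoxin PRDX2 by -0.17 (adjusted p = 0.249) and the lipid peroxidase GPX4 by -0.12 (adjusted p = 0.218).

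SLC30A1, which exports zinc across the plasma membrane, rose by 0.87 on a probe set of moderate brightness (SE 0.0977, adjusted p = 0.0165), or 1.82-fold. It read 4.50, 4.83, 4.56, 4.99 and 4.63 with vehicle and 5.59, 5.74, 5.45, 5.53 and 5.53 with GW9662, and the call was kept in 6 of the 10 fits (adjusted p = 0.0658 without vehicle replicate 5). Of 10 bright genes of zinc and metal handling 5 had a positive difference and 0 were free of overlap. The metallothionein MT2A differed by -0.19 (adjusted p = 0.217), the copper importer SLC31A1 by -0.24 (adjusted p = 0.217) and the zinc carrier SLC39A7 by -0.09 (adjusted p = 0.305), all with overlap.

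TNFRSF12A, the receptor for the cytokine TWEAK, had the largest difference among bright genes whose brightest probe set showed no overlap but missed the threshold. It read 5.26, 5.41, 5.78, 5.76 and 5.50 with vehicle and 6.91, 7.01, 5.85, 6.34 and 6.69 with GW9662. GW9662 replicate 3 lay just above the vehicle arrays and the others well above, and the difference was 1.02 (SE 0.222, adjusted p = 0.135 over all probe sets, 0.0264 where only bright ones were fitted). TNFRSF6B, a soluble decoy receptor for FAS ligand, rose by 0.83 (SE 0.107, adjusted p = 0.0351), from 2.39 to 2.76 with vehicle to 3.12 to 3.59 with GW9662. These are values near the floor of the arrays, and the call was kept in 2 of the 10 fits (largest adjusted p 0.108, without GW9662 replicate 2).

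Within the list of death receptors, caspases and the BCL2 family, 2 of 19 bright genes were higher without overlap. They were TNFRSF12A and PDCD10 (0.21, adjusted p = 0.129), a cerebral cavernous malformation gene. The apoptosis effector BAX differed by 0.22 (adjusted p = 0.217) and its antagonist MCL1 by -0.14 (adjusted p = 0.218), both with overlap. The list median was -0.00, 0.04 with centring and -0.06 after quantile normalisation.

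Genes of mitosis passed through 5 probe sets. HMMR, a hyaluronan-binding protein of the spindle, rose by 0.42 on its brightest probe set (SE 0.0592, adjusted p = 0.0439) and by 1.21 on a dimmer one (SE 0.165, adjusted p = 0.0439). The S-phase cyclin CCNA2 rose by 0.62, SGO2, which protects centromeric cohesion, by 0.45, and the spindle protein CKAP2 by 0.55 on a dim probe set. The brighter CKAP2 probe sets differed by 0.38 (mean 10.30, adjusted p = 0.188) and 1.34 (mean 6.002, adjusted p = 0.189), both with overlap. Only CCNA2 passed in all 10 fits without 1 array, and the calls on HMMR, SGO2 and CKAP2 were kept in 1 or 2 fits (largest adjusted p 0.128 to 0.130, without vehicle replicate 2). NUSAP1, a microtubule bundler of the spindle, differed by 0.52 (adjusted p = 0.0699), and ASPM, which focuses spindle poles, by 0.57 (adjusted p = 0.169), both without overlap. In the cell cycle list 9 of 36 bright genes were higher without overlap and 0 lower, with a median of 0.25. The list of oxidative phosphorylation showed 8 of 71 lower and 0 higher (median -0.09), and that of ribosomal proteins 1 of 61 lower and 0 higher (median -0.07). With the 3′ minus 5′ covariate the cell cycle, oxidative phosphorylation and ribosomal protein medians were 0.15, -0.10 and -0.06.

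Other genes past the threshold were NME7, a nucleoside diphosphate kinase homologue of the γ-tubulin complex, and ZNF746, a zinc finger repressor. NME7 read 8.86, 8.95, 8.92, 8.92 and 8.92 with vehicle and 8.75, 8.74, 8.74, 8.69 and 8.75 with GW9662, and fell by 0.18 (SE 0.0184, adjusted p = 0.0117). The fall was small but exceeded the narrow spread of both groups. The call was lost with centring (adjusted p = 0.0817) and without vehicle replicate 5 (adjusted p = 0.0547). It was also lost when only probe sets of mean 6 or more, or of mean 3 or more, were fitted, and with a trended and robust variance. ZNF746 fell by 0.24 (SE 0.0345, adjusted p = 0.0455), and its call was kept in 1 of the 10 fits (largest adjusted p 0.129, without vehicle replicate 2). The remaining 12 probe sets past the threshold had no gene symbol. The brightest of them fell by 0.42, from 11.51 ± 0.0703 with vehicle to 11.09 ± 0.0562 with GW9662 (SD, n = 5). The next brightest rose by 0.70, from 9.76 ± 0.211 to 10.46 ± 0.0865 (SD, n = 5).

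Several inflammatory and vascular genes were lower with GW9662 without passing the threshold over all probe sets. CSF1, the growth factor of macrophages, read 11.16, 11.13, 11.11, 10.88 and 10.99 with vehicle and 10.82, 10.85, 10.59, 10.56 and 10.66 with GW9662, a difference of -0.36 (SE 0.0749, adjusted p = 0.123). VCAM1, the endothelial ligand for leukocyte integrins, was 9.38 ± 0.0985 with vehicle and 9.09 ± 0.0448 with GW9662 (SD, n = 5), a difference of -0.29 (adjusted p = 0.0627). BCL3, a nuclear partner of NF-κB, differed by -0.41 (SE 0.0946, adjusted p = 0.156), and GRN, the secreted progranulin, by -0.37 (SE 0.0713, adjusted p = 0.112). In each of these the groups did not overlap. Where only bright probe sets were fitted, limma's adjusted p was 0.0361 for VCAM1, 0.0423 for CSF1, 0.0457 for BCL3 and 0.0348 for GRN.

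VCAM1 and CSF1 were the 2 genes lower without overlap among 17 bright genes of adhesion and inflammation, and 0 were higher. ICAM1 differed by -0.21 (adjusted p = 0.217) and the chemokine CXCL8 by 0.15 (adjusted p = 0.190), both with overlap. The list median was -0.05, and it was -0.01 with centring, -0.14 after quantile normalisation and -0.21 with the 3′ minus 5′ covariate. In the interferon list of 17 bright genes only the immunoproteasome subunit PSMB8 was free of overlap (-0.26, adjusted p = 0.172), and IFI6 differed by -0.32 with overlap (adjusted p = 0.217). The interferon median was -0.045, and -0.19 with the 3′ minus 5′ covariate. Of 33 bright proteasome subunits, 8 had a positive difference and the median was -0.04. It was 0.00 with centring, where the median over all bright genes was 0.06 in place of 0.01.

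On the brightest probe set of each gene, other large non-overlapping differences fell short of the threshold. UBE2N, the conjugating enzyme for K63-linked ubiquitin chains, read 6.72 to 7.42 with vehicle and 7.44 to 7.87 with GW9662, a difference of 0.55 (adjusted p = 0.184). The copine CPNE8 differed by 0.55 (adjusted p = 0.0516), FYTTD1, an mRNA export factor, by 0.58 (adjusted p = 0.169), the calcium-binding PEF1 by 0.58 (adjusted p = 0.196) and TMEM161B by 0.53 (adjusted p = 0.193). TMED5, a p24 cargo protein, and NSL1, a kinetochore subunit, differed by 0.75 and 0.65, but by 0.52 and 0.36 without vehicle replicate 1, whose values were far below the others.

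Lower in the same class were UROD, an enzyme of haem synthesis (-0.33, adjusted p = 0.0571), TMEM47, a protein of cell junctions (-0.35, adjusted p = 0.190), the histone H2AC20 (-0.34, adjusted p = 0.0820), TBL3 of ribosomal RNA processing (-0.31, adjusted p = 0.217) and the cytochrome oxidase subunit COX7A1 (-0.31, adjusted p = 0.217). LOC404103 differed by -0.31 with all arrays and by -0.18 without vehicle replicate 1.

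The probe set of PPARG, the receptor that GW9662 blocks, was at floor level, reading 2.79 to 2.87 with vehicle and 2.75 to 2.81 with GW9662. No change in its message can be read from values that low. Of 11 measured genes for PPAR receptors and partners 5 were bright and 0 passed. The partner RXRA differed by -0.08 (adjusted p = 0.316), the corepressor NCOR1 by 0.19 (adjusted p = 0.382) and the coactivator CREBBP by 0.16 (adjusted p = 0.334), all with overlap.

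FABP4, which binds fatty acids in endothelium and fat and is switched on by PPARγ, was among the brightest genes in both groups. It read 12.41, 12.68, 12.51, 12.46 and 12.56 with vehicle and 12.46, 12.54, 12.46, 12.57 and 12.48 with GW9662, so the groups overlapped fully and the difference was -0.02 (SE 0.0488, adjusted p = 0.769). ANGPTL4, a secreted inhibitor of lipoprotein lipase and another target, differed by 0.01 (SE 0.104, adjusted p = 0.953). CD36, a fatty acid and thrombospondin receptor, was dim and differed by 0.79 with overlap (SE 0.244, adjusted p = 0.217).

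Over the list of PPAR targets and fatty acid handling, 15 of 26 measured genes were bright and 0 of the 26 passed. Without overlap, 2 were higher, SLC25A20 and the acyl-CoA ligase ACSL1 (0.13, adjusted p = 0.123), and 1 was lower, the lipoprotein receptor SCARB1 (-0.28, adjusted p = 0.166). The median was 0.01, but -0.02 after quantile normalisation and -0.03 without vehicle replicate 1. The list of sterol and lipid synthesis had 14 bright genes, of which 0 were free of overlap, and a median of 0.01 (-0.06 after quantile normalisation).

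Genes of vascular tone also gave no call. NOS3, the endothelial nitric oxide synthase, read 9.31, 9.30, 9.44, 9.13 and 9.18 with vehicle and 9.26, 9.32, 9.09, 9.16 and 9.02 with GW9662, a difference of -0.10 with overlap (SE 0.0739, adjusted p = 0.372). EDN1, the vasoconstrictor endothelin, was brighter and differed by -0.06 (SE 0.0327, adjusted p = 0.262). RAMP2, which makes the calcitonin receptor-like receptor respond to adrenomedullin, was the 1 of 12 bright genes of that list without overlap. It was 11.08 ± 0.0823 with vehicle and 10.85 ± 0.0378 with GW9662 (SD, n = 5), a difference of -0.23 (adjusted p = 0.0770). The list median was -0.06, and -0.02 with centring.

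The label of the cells was checked against 10 defining endothelial markers, of which 9 were measured and 6 were bright: PECAM1, CDH5, TEK, TIE1, ERG and ROBO4. VWF and CLDN5 lay under 3 in both groups. KDR, the main VEGF receptor, was dim, at 2.67, 2.47, 2.65, 2.74 and 2.66 with vehicle and 4.04, 4.59, 2.65, 3.27 and 4.40 with GW9662. 4 of 5 treated arrays lay above all vehicle arrays and GW9662 replicate 3 lay among them, with a difference of 1.15 (SE 0.347, adjusted p = 0.217). PECAM1, the junctional adhesion molecule of endothelium, read 11.54 to 11.72 with vehicle and 11.36 to 11.52 with GW9662, a difference of -0.15 without overlap (SE 0.0447, adjusted p = 0.217). Another PECAM1 probe set, with a mean of 10.71, differed by 0.10 (adjusted p = 0.570), and CDH5, the cadherin of endothelial junctions, by -0.12 with overlap (adjusted p = 0.257). A dimmer CDH5 probe set (mean 8.25) differed by 0.16 with overlap (adjusted p = 0.374).

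**Figure D4:**
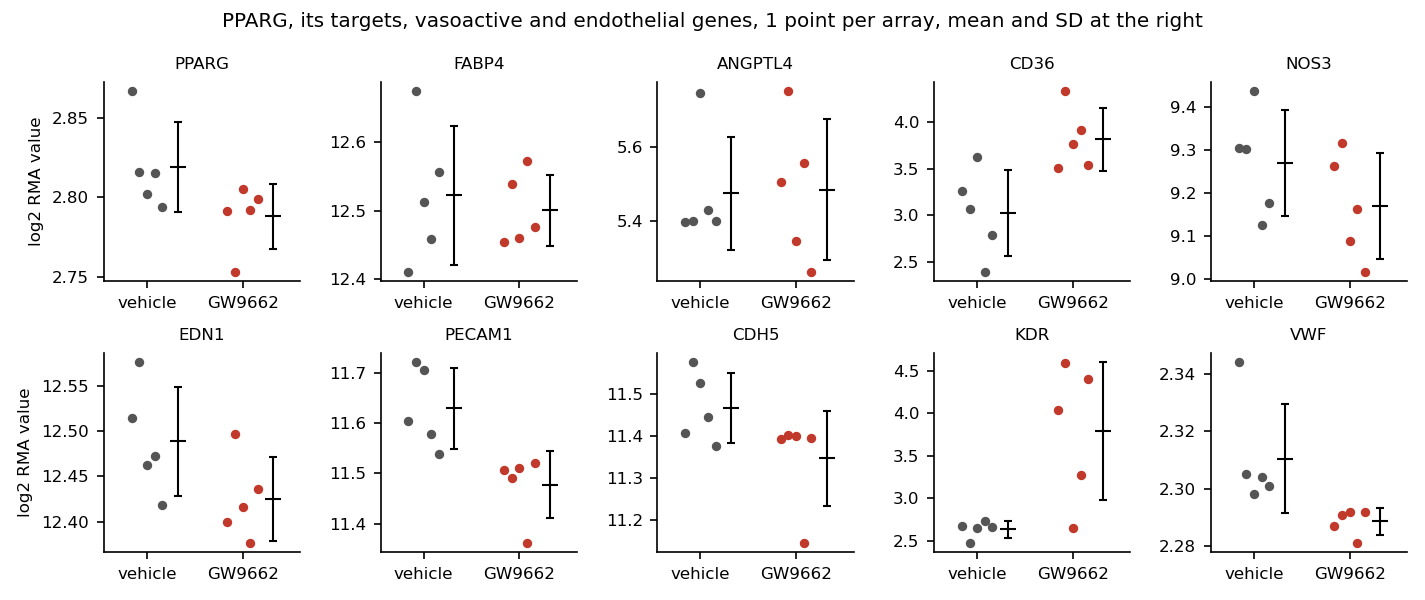
Each panel gives the log2 value of 1 gene on each vehicle array (grey) and GW9662 array (red), with group mean ± SD at the right; y axes differ between panels and do not start at 0. PPARG and VWF lie under 3 on all arrays, FABP4 lies near 12.5 in both groups, and KDR is above all vehicle arrays on 4 of 5 treated arrays. None of the 10 genes passed the threshold.

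In the wider endothelial list 7 of 22 bright genes had a positive difference, and the median was -0.08 (-0.03 with centring, -0.11 after quantile normalisation). With the 3′ minus 5′ covariate that median was -0.18, against -0.06 over all bright genes. Without overlap, 1 was lower, PECAM1, and 0 were higher. The caveolins, listed there too, were called only on probe sets other than their brightest. Endoglin (ENG), a coreceptor of BMP signalling, differed by -0.23 (adjusted p = 0.205), and NOTCH4, an endothelial Notch receptor, by -0.21 without overlap (adjusted p = 0.178).

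Markers of other cell types were mostly at the floor, and their part in the results was not tested. Of smooth muscle and pericyte markers 13 were measured, 2 were bright (TAGLN and CALD1) and 9 lay under 3. Their summed signal was 307.9 to 368.7 with vehicle and 334.9 to 389.4 with GW9662 (two-sided exact permutation p = 0.0317, adjusted p = 0.077). Of 14 fibroblast markers 3 were bright (S100A4, COL3A1 and COL1A2) and 9 under 3, with sums of 10200 to 11290 and 10180 to 10690 (exact permutation p = 0.107). Of 18 leukocyte markers 1 was bright, CD14, and 15 lay under 3. None of 15 epithelial and 11 erythroid and platelet markers was bright. The summed endothelial signal was 36380 to 39750 with vehicle and 35790 to 38070 with GW9662 (exact permutation p = 0.206).

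BMP and TGF-β signalling, whose receptors are mutated in inherited pulmonary hypertension, had 3 of 16 bright genes higher without overlap and 0 lower. They were ID2, an inhibitor of helix-loop-helix factors (0.37, adjusted p = 0.209), the common mediator SMAD4 (0.32, adjusted p = 0.217) and the type I receptor ACVR1 (0.24, adjusted p = 0.149). ID1, a target of the same pathway, differed by -0.20 with overlap (adjusted p = 0.166). The median was 0.08, and it was 0.13 with centring, 0.04 after quantile normalisation and -0.01 with the 3′ minus 5′ covariate.

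**Figure D5:**
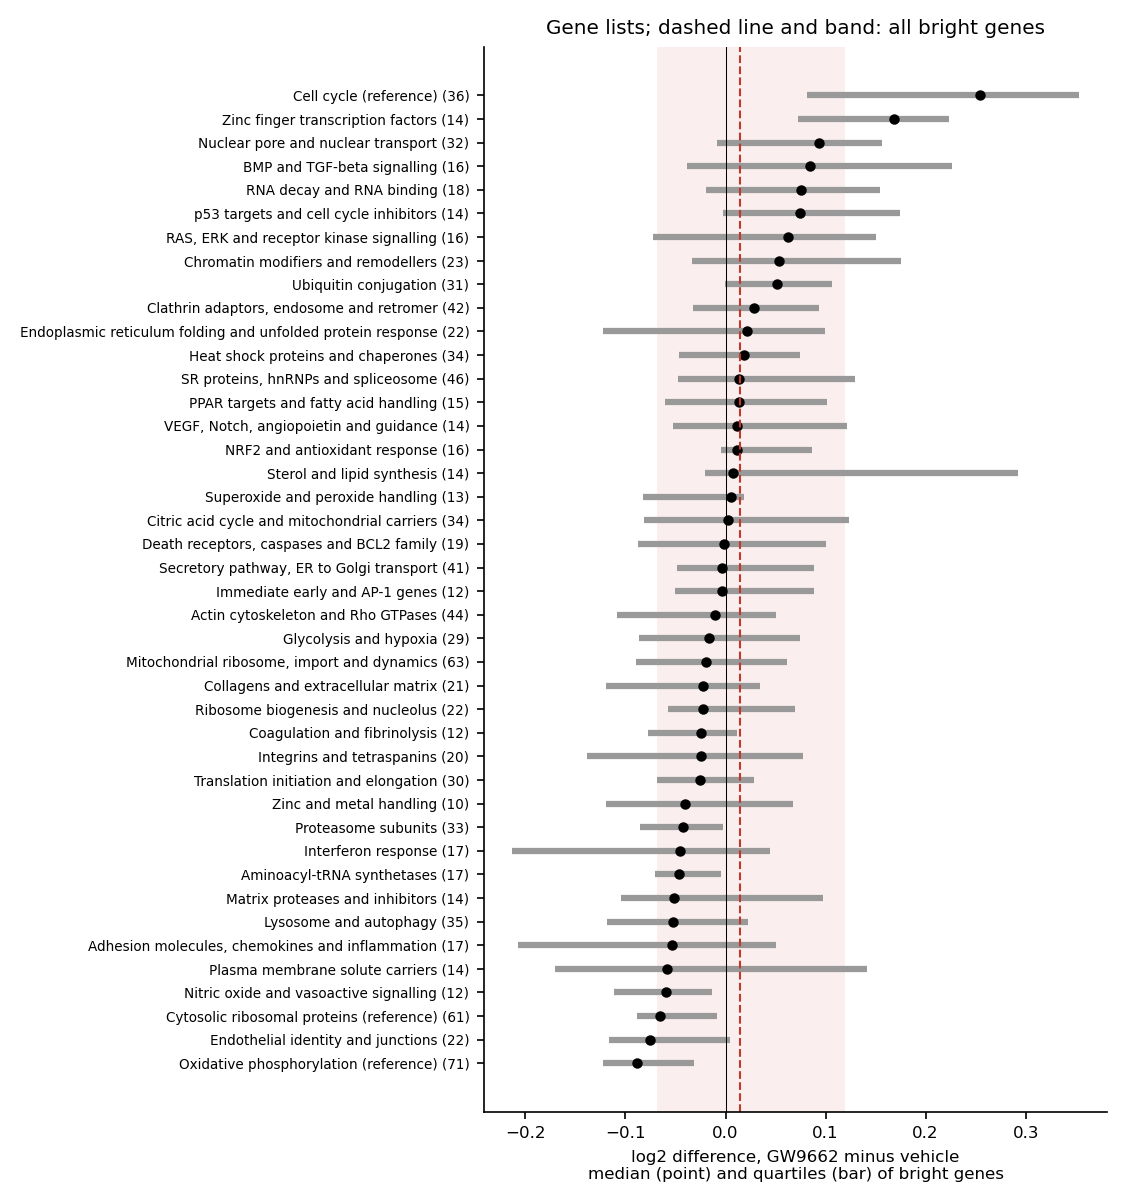
For each list with 10 or more bright genes (number in brackets), the point is the median log2 difference on the x axis and the bar spans the quartiles. The dashed line and band are the median and quartiles of all 4353 bright genes. Most list medians lie inside that band, those of the cell cycle (0.25) and zinc finger (0.17) lists lie above it, and those of the endothelial (-0.08) and oxidative phosphorylation (-0.09) lists lie below it.

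Of the remaining lists, zinc finger transcription factors had 11 of 14 bright genes with a positive difference and a median of 0.17, with 0 free of overlap, and the called ZNF746 was too dim to be among them. Their median was 0.21 with centring, 0.11 after quantile normalisation and 0.10 without vehicle replicate 1, but -0.06 with the 3′ minus 5′ covariate, the same as over all bright genes in that fit. Nuclear pore and transport genes had a median of 0.09 with 23 of 32 positive. NUP133, a scaffold nucleoporin, was the only one without overlap (0.39, adjusted p = 0.217), and the median was 0.04 without vehicle replicate 1 and -0.03 with the 3′ minus 5′ covariate. Ubiquitin conjugation had 23 of 31 positive and a median of 0.05, which became -0.03 with that covariate. Chromatin modifiers had 16 of 23 positive and a median of 0.05, which became -0.01 after quantile normalisation, -0.00 without vehicle replicate 1 and -0.12 with the covariate.

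The actin list of 44 bright genes had 3 higher and 1 lower without overlap and a median of -0.01 (0.03 with centring). The higher ones were ARPC3, a subunit of the ARP2/3 nucleator (0.50, adjusted p = 0.0820), profilin PFN1 (0.22, adjusted p = 0.169) and cofilin CFL2 (0.17, adjusted p = 0.207). The lower one was the myosin light chain MYL12A, named after its values were seen (-0.10). Lysosome and autophagy had 2 higher and 1 lower of 35, and a median of -0.05 (-0.15 with the 3′ minus 5′ covariate). The cathepsin CTSC was the lower one (-0.26, adjusted p = 0.112), and the proton pump accessory protein ATP6AP2 was among the higher (0.30, adjusted p = 0.184).

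Aminoacyl-tRNA synthetases had 4 of 17 positive, 0 free of overlap and a median of -0.05 (-0.00 with centring, -0.15 with the 3′ minus 5′ covariate). Among heat shock proteins and chaperones 2 of 34 were higher without overlap, CHORDC1 (0.37, adjusted p = 0.217) and DNAJB9 (0.22, adjusted p = 0.208), with a median of 0.02 (-0.00 after quantile normalisation). The lists of endoplasmic reticulum folding, p53 targets, immediate early genes, coagulation, matrix proteases, ribosome biogenesis, PI3K and mTOR signalling, and Wnt and Hippo signalling held 0 genes free of overlap and 0 past the threshold.

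The list of VEGF, Notch, angiopoietin and guidance genes had 14 bright members. Beside TSPAN12, the lymphatic growth factor VEGFC was higher without overlap (0.10, adjusted p = 0.217), NOTCH4 was the 1 lower, and the median was 0.01 (-0.03 after quantile normalisation). Of 20 bright integrins and tetraspanins, TSPAN12 and TM4SF18 were the 2 without overlap, with a median of -0.02 (0.02 with centring). Of 21 bright collagen and matrix genes COL3A1 was the 1 without overlap (0.11, adjusted p = 0.188). Leaving out 1 array kept the sign of the VEGF (0.002 to 0.036), integrin (-0.043 to -0.009) and collagen (-0.065 to -0.009) medians. Those of the spliceosome, glycolysis, citric acid cycle, secretory and death receptor lists changed sign. So did those of the PPAR target, sterol, superoxide, translation, chromatin, endoplasmic reticulum folding, immediate early and PI3K lists. All were close to 0, and no direction was read from them.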

How the data were processed

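Per the labels, each array carried labelled RNA of 1 sample. The authors deposited log2 values from RMA, a tool named in the submitters' processing notes without a version. RMA subtracts background, brings all arrays to one distribution and combines probes into probe sets, so it can hide a shift common to most genes. Signal over background is not given in the sources used here. The 112 control probe sets were left out. Names came from the platform annotation given: 13292 probe sets had 1 symbol, 86 had several and 10638 had none. In lists, a gene was its brightest probe set over the 10 arrays.

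The 5 GW9662 and 5 vehicle arrays were fitted without covariates in limma 3.58.1 (lmFit, eBayes; R 4.3.3). For array measures, two-sided exact permutation tests were used and adjusted together. The fit was tested on simulated data. The number of arrays limits the precision. The members, the 50 gene lists and the naming rule were chosen with earlier results of these data known. The rule named each gene past the threshold, the 10 largest non-overlapping differences per direction among other bright genes, up to 4 bright members of each list with the smallest p, and 10 genes whatever their values. Alternatives were scaling, dim filters, the variance model, array weights, all 15 arrays, a replicate block, a 3′ minus 5′ covariate, 1 probe set per gene, and leaving out each array.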

Additional observations from a re-analysis of the deposited data

Results flagged for a closer look

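Within groups of 5 arrays, a value was singled out where its gap to the nearest other array exceeded 0.71 of the group's range. Of 130 groups tested, 15 held such a value, where chance gives about 5%. Vehicle replicate 1 held 6 of the 15: the array's upper quartile at 6.56, NSL1 at 5.14, TMED5 at 5.02, SEC22A at 3.14, LOC404103 at 6.73 and VWF at 2.34. NSL1, TMED5 and SEC22A were low there, and LOC404103 and VWF were high, the last of these among values at the floor of the arrays. GW9662 replicate 4 held CDH5 at 11.14, PECAM1 at 11.36 and NME7 at 8.69, each lower than in the other treated arrays. ASPM was high in GW9662 replicate 3, at 7.14, TBL3 in vehicle replicate 5, at 6.55, and ANGPTL4 in vehicle replicate 3, at 5.75. ZNF746 was high in vehicle replicate 4, at 5.93, and low in GW9662 replicate 1, at 5.50. PPARG was low in GW9662 replicate 2, at 2.75, a value at the floor.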

How the results depend on the processing

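The count of 44 probe sets past the threshold, 29 of them bright, changed with the processing. It was 67 (45 bright) with arrays centred, 62 (45 bright) after a second quantile normalisation, 65 (48 bright) with array weights, 26 (18 bright) with a trended and robust variance and 237 (164 bright) with all 15 arrays sharing the spread. It was 76 (51 bright) with probe sets of mean 3 or more, 152 with those of mean 6 or more, of which 26 were among the 44, and 30 (19 bright) with 1 probe set per gene. Leaving out 1 array gave 9 to 62 probe sets, 7 to 37 of them bright. With the replicate block limma called 0 (3205 at an unadjusted p under 0.05). Only 1 of 5 same-numbered pairs deviated together with a correlation over 0.1, and 2 of 5 correlated best with their own number. With 5 pairs these values cannot decide whether the numbers pair the arrays, and the main fit left pairing out. With the 3′ minus 5′ covariate limma also called 0 (1312 at an unadjusted p under 0.05). Under that covariate NSL1 turned to -0.069 and TMED5 to -0.126, and no other named probe set past the threshold or among the 10 largest non-overlapping differences per direction changed sign in a fit that held it. With 1 probe set per gene, 20 of the 32 called probe sets with 1 symbol were held, and the brightest probe sets of TOMM70, CAV1 and AP2B1, at -0.08, -0.06 and -0.14, had the opposite sign to the called ones. The cause of these changes was not tested. List medians already use 1 probe set per gene, so that alternative was not run for them. Values near the floor of the arrays bound no difference.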
